A study of Mus musculus with 5 samples.

Results

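The genes of glycolysis and of the response to low oxygen were examined in macrophages that had shared medium with cancer cells containing or lacking the sheddase ADAM17. The list held 38 gene symbols chosen by name, with earlier results of these data known. They were 18 glycolytic enzymes, 5 glucose and lactate transporters and 15 hypoxia response genes, of 17058 genes with at least 1 count in any library. All 38 were on file, and all 38 were among the 12576 genes that passed the filter on low counts.

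Glycolysis splits glucose into pyruvate in the cytosol, and lactate dehydrogenase and the monocarboxylate carriers dispose of that pyruvate as lactate. Hypoxia-inducible factors (HIFs) are dimers of an alpha subunit and ARNT. With oxygen present, prolyl hydroxylases encoded by the Egln genes mark the alpha subunit for destruction through VHL, and without it the dimer binds short DNA words near its targets, among them most glycolytic enzymes and a set of genes for mitophagy, collagen modification and feedback on the pathway itself. In macrophages the same factors are also known to respond to inflammatory signals at normal oxygen.

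Bone marrow-derived macrophages (BMDMs) came from BALB/c mice, which were 6 to 12 weeks old by the study's methods and were matured in M-CSF. The tumor cells were 4T1, a mouse mammary carcinoma line of the same strain, kept apart from the macrophages by a porous membrane. After 48 hours the macrophage RNA was sequenced, from 2 cocultures with WT 4T1 cells (WT) and from 3 with ADAM17 knock-out 4T1 cells (Adam17-/-). The macrophages themselves carried an intact Adam17 gene in both groups, and the groups were set up to differ in the tumor cells. No macrophages cultured without tumor cells were analysed here. All 3 Adam17-/- libraries bear 1 and the same knock-out code in the labels, so that loss of ADAM17 and other features of that knock-out line cannot be told apart.

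The 5 libraries held between 14658694 and 20788373 counts over genes. TMM factors, which correct for differences in RNA composition, were 0.92 and 0.96 in WT and 1.04 to 1.05 in Adam17-/- libraries, and levels are given below as CPM, counts scaled to a common library size with these factors. A gene with 3 counts would lie between 0.157 and 0.197 CPM. Transcripts of Adam17 in the macrophages were at 198 and 199.6 CPM in WT and at 152, 164 and 161 CPM in Adam17-/- cocultures, which is no check of the tumor cells' genotype. Of 12 macrophage markers, 7 passed lower and 0 higher, and their summed level was 32850 and 32700 CPM in WT against 23100 to 25020 CPM in Adam17-/- libraries; Lyz2, Csf1r, Itgam and Adgre1 were high in all 5. Of 12 markers of the neutrophil lineage, 8 passed higher, and the median log2 fold change of the 12 was 1.69. The 12 summed to 1310 and 1355 CPM in WT against 2140 to 2412 CPM in Adam17-/- libraries. Most of the WT sums came from Mmp8, which did not pass (912.8 and 1027 CPM in WT against 1176, 1024 and 1003 CPM). Of 8 megakaryocyte and platelet markers 7 passed higher, with sums of 134 to 155 against 194 to 291 CPM. Dendritic cell markers (3 of the 6 tested higher, of 8 listed) summed to 14.2 to 21.4 against 26.2 to 37.3 CPM, mast cell and eosinophil markers had 1 of 3 tested higher, of 8 listed, and proliferation markers had 5 of 10 higher and 1 lower. Of 10 epithelial markers, Cdh1 alone was tested and did not pass, Krt18 lay between 0.271 and 0.438 CPM, and Epcam, Krt8, Krt14 and Krt19 stayed at or under the level of 3 counts in every library. The part of these other cells in the results below was not tested, and in bulk RNA fewer cells of a type and less RNA per cell cannot be told apart.

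Across all genes, 3983 of 12576 passed edgeR's quasi-likelihood test at a Benjamini-Hochberg adjusted p of 0.05, or 31.7%; 14.9% were higher and 16.8% lower in Adam17-/- cocultures. The median log2 fold change over all genes was 0.01. Scaling by library size alone moved that median to 0.16 and the share of higher calls among all calls from 46.9% to 73.7%, and fold changes of single genes below have to be read with that shift. Of the 38 listed genes, 20 passed, 12 higher and 8 lower, which is 52.6% of the list, and their median log2 fold change was 0.01. Values of the WT and Adam17-/- libraries did not overlap in 26 of the 38 (68.4%), against 58.1% of all genes tested. A fold change of at least 2 together with an adjusted p of 0.05 or less was found in 2 members, Adm and Slc2a3, and in 4.22% of all genes. The labels do not say whether the replicates came from separate mice or cultures, so that p-values measure the spread between these samples only.

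Among hypoxia response genes 8 of 15 were higher and 0 lower, and the median log2 fold change was 0.48. Over all genes, 14.9% were higher and 16.8% lower. Among glycolytic enzymes 2 of 18 were higher and 6 lower, with a median of -0.085 that turned to 0.06 with library size scaling, where 3 were higher and 1 lower. Of the 5 transporters 2 were higher and 2 lower. Whether the groups differ from each other was not tested.

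**Figure D1:**
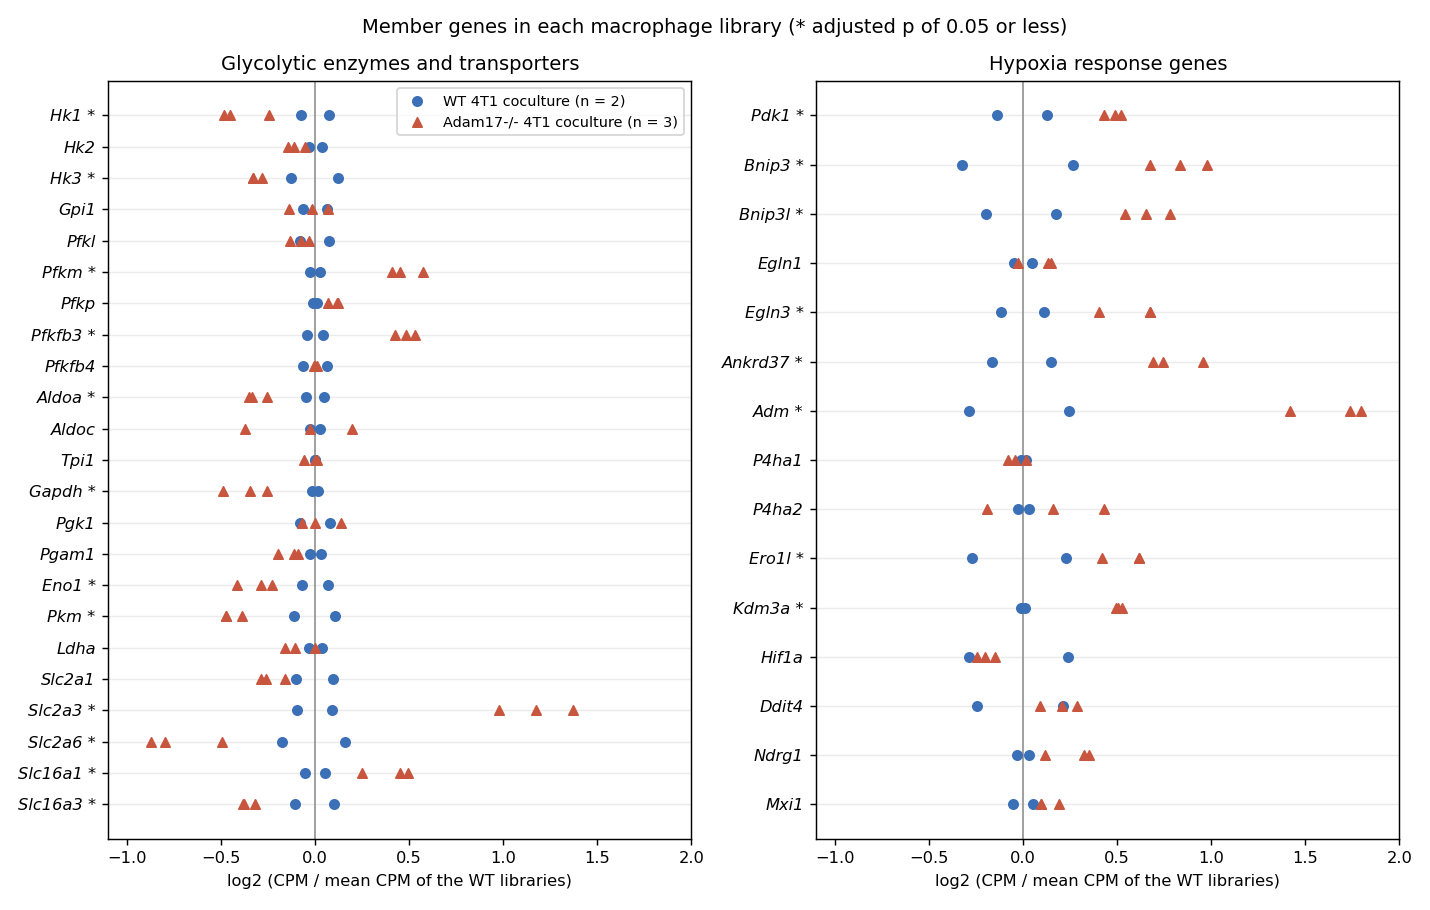
Each point is 1 library, placed by the log2 ratio of its TMM-normalized CPM to the mean CPM of the 2 WT libraries, for the glycolytic enzymes and transporters (left) and the hypoxia response genes (right); circles are WT and triangles Adam17-/- cocultures, and asterisks mark an adjusted p of 0.05 or less. The 8 hypoxia response genes with an asterisk have all 3 triangles to the right of both circles, whereas the enzymes with an asterisk lie on either side. The asterisks come from a test on these same libraries. Over all 15 hypoxia response genes the groups did not overlap in 10 (66.7%), against 58.1% of all genes tested.

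The hypoxia response genes that passed were Pdk1, Bnip3, Bnip3l, Egln3, Ankrd37, Adm, Ero1l and Kdm3a, and all 8 were higher in macrophages from Adam17-/- cocultures. edgeR's test found 0 of the 15 lower, also at an unadjusted p of 0.05, and DESeq2 found 9 higher and 0 lower. The library size scaling gave 10 higher and 0 lower, and limma on log2 FPKM the same counts. Over all 12576 genes, higher calls rose too, from 1869 with TMM factors to 3019 with library size scaling. With limma they were 2927 on log2(FPKM + 0.1) and 2867 on log2(FPKM + 1). At an adjusted p of 0.05, calls on 7 of the 8 held under all 14 alternative fits, the exception being Ero1l; at the stricter adjusted p of 0.001 edgeR called 0 of the 15. The 15 genes took 0.244% and 0.309% of all counts in WT against 0.343% to 0.381% in Adam17-/- libraries. WT replicate 2 lay above WT replicate 1 in 11 of the 15.

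Adm encodes adrenomedullin, a secreted vasodilator peptide whose transcript is a standard readout of HIF activity. It was scarce, with 20 and 28 reads in WT cocultures and 78, 52 and 84 in Adam17-/- cocultures, or 1.05 and 1.52 CPM against 4.27, 3.42 and 4.45 CPM. All 3 Adam17-/- values lay above both WT values. Its log2 fold change of 1.66 (SE 0.252, adjusted p = 0.0017 by edgeR), a 3.17-fold higher level, was the largest of the list and ranged from 1.42 to 1.95 with single libraries left out.

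Bnip3 and Bnip3l (NIX) encode outer mitochondrial membrane proteins that recruit the autophagy machinery to mitochondria. Bnip3 was at 130 and 196 CPM in WT and at 320.2, 259.7 and 290.5 CPM in Adam17-/- libraries. The WT libraries stood far apart, and the lowest Adam17-/- value still exceeded the higher one. The log2 fold change was 0.83 (SE 0.160, adjusted p = 0.00494 by edgeR), with a range of 0.56 to 1.16 when single libraries were left out. Bnip3l was at 117 and 151 CPM in WT against 230.0, 195 and 211 CPM, a log2 fold change of 0.66 (SE 0.121, adjusted p = 0.00389 by edgeR). Both genes showed the same order of libraries, with WT replicate 1 lowest and Adam17-/- replicate 1 highest.

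Egln3, the oxygen-sensing hydroxylase PHD3 and itself a HIF target, was at 73.5 and 86.3 CPM in WT and at 127, 106 and 127 CPM in Adam17-/- cocultures. Its log2 fold change was 0.59 (SE 0.113, adjusted p = 0.00487 by edgeR). Egln1, the main hydroxylase PHD2, had a log2 fold change of 0.09 (SE 0.0869) and did not pass (adjusted p = 0.472 by edgeR). Ankrd37, a small ankyrin-repeat protein induced by HIF, was at 14.2 and 11.4 CPM against 24.8, 20.7 and 21.4 CPM, a log2 fold change of 0.80 (SE 0.135, adjusted p = 0.00274 by edgeR). For Egln3 and Ankrd37 the groups did not overlap.

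Kdm3a, a histone H3K9 demethylase, had the smallest standard error of the 8, with levels of 180.2 and 177 CPM in WT against 258, 251 and 253 CPM. Its log2 fold change was 0.51 (SE 0.0758, adjusted p = 0.0016 by edgeR). Of its 2 RefSeq transcripts, NM_173001 took 25.5% and 24.2% of the gene's counts in WT and 38.2%, 36.0% and 34.8% in Adam17-/- libraries. These shares are estimates by which reads fitting both transcripts were divided, and the difference was not tested.

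Pdk1 encodes the kinase that switches off pyruvate dehydrogenase and so limits the conversion of pyruvate to acetyl-CoA. It was at 83.1 and 99.9 CPM in WT and at 131, 123 and 128 CPM in Adam17-/- libraries, with a log2 fold change of 0.48 (SE 0.0968, adjusted p = 0.00602 by edgeR). The Pdk1 count in WT replicate 2 lay more than 0.05 from a whole number, so that some of its reads there were divided with another gene. Ero1l (Ero1a), the oxidase that drives disulfide bond formation in the endoplasmic reticulum, was at 344.9 and 487 CPM against 638, 555.5 and 638 CPM, a log2 fold change of 0.55 (SE 0.139, adjusted p = 0.0152 by edgeR). The Ero1l call was lost without Adam17-/- replicate 1 (log2 fold change 0.54, adjusted p = 0.063) and without Adam17-/- replicate 3 (0.54, adjusted p = 0.0567). The Ero1l value also depended on the WT libraries, at 0.32 without WT replicate 1 and 0.82 without WT replicate 2, and passed in both fits.

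**Figure D2:**
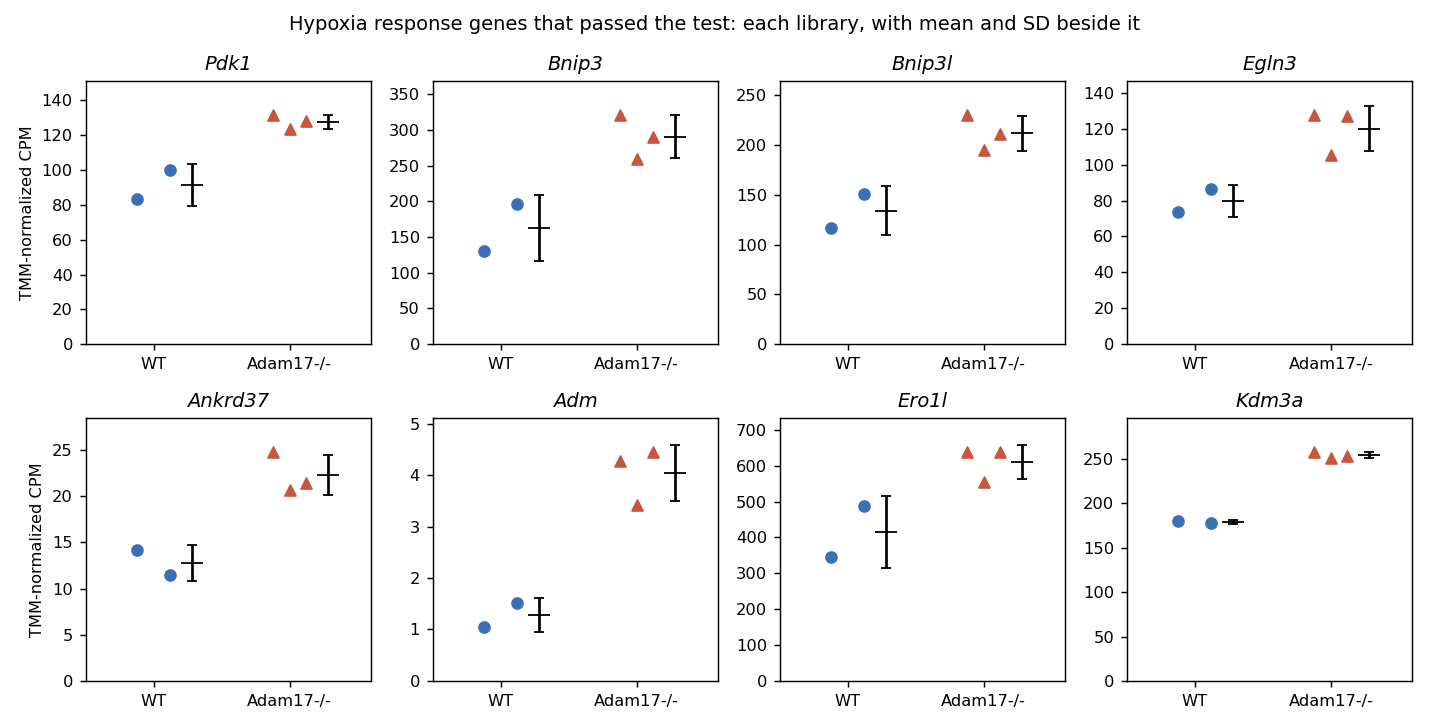
TMM-normalized CPM (y axis, from 0) of the 8 hypoxia response genes that passed the test, with 1 point for each library of the WT (circles, n = 2) and Adam17-/- (triangles, n = 3) cocultures and the mean and SD of each group beside the points. In every panel the lowest Adam17-/- library lies above the higher WT library, in genes shown because they passed the test on these same libraries. In Bnip3, Bnip3l and Ero1l the WT libraries are spread the widest in CPM.

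The remaining 7 hypoxia response genes did not pass. Hif1a, the oxygen-regulated alpha subunit, was at 601 and 867 CPM in WT and at 661.5, 637 and 619 CPM in Adam17-/- libraries, so that the 3 Adam17-/- values fell between the 2 WT values. Its log2 fold change of -0.20 (SE 0.135, adjusted p = 0.282 by edgeR) depended on the WT libraries: without WT replicate 2 it was 0.09, and without WT replicate 1 it was -0.44 and passed (adjusted p = 0.00123). Ddit4 (REDD1), an inhibitor of mTORC1 signaling, was at 57.8 and 79.4 CPM against 73.0, 83.6 and 79.0 CPM, overlapping groups with a log2 fold change of 0.19 (SE 0.130, adjusted p = 0.277 by edgeR). Without WT replicate 2 the Ddit4 value rose to 0.44 and passed (adjusted p = 0.002), and without WT replicate 1 it was -0.02.

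Ndrg1, a stress-inducible protein also known as a metastasis suppressor, had a log2 fold change of 0.27 and an adjusted p of 0.0547 by edgeR, and passed under 9 of the 14 alternatives, DESeq2 and library size scaling among them. Mxi1, an antagonist of MYC, was at 0.13 (adjusted p = 0.259) and passed under 3 alternatives that use no composition factors. P4ha1 and P4ha2, the catalytic subunits of collagen prolyl 4-hydroxylase, were at -0.04 and 0.16 (adjusted p = 0.747 and 0.467 by edgeR), the P4ha1 value turning to 0.11 with library size scaling.

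The letters around the start sites of the listed genes are shown next because the DNA words that HIF dimers recognize, ACGTG and GCGTG, are short enough to be read in them. RefSeq promoter windows of GRCm38.p6, from 250 bases before to 50 bases after a start site, were matched for 35 of the 38 members; Slc2a3, Bnip3l and Ndrg1 had no entry. The words were counted on both strands. The 250 bases before the start site are given 5' to 3' on the strand of the gene for 4 members that rose, chosen for the range from 1 to 5 matches, with every match in capitals. The Adm window is chr7:110627407-110627656 (plus strand), that of Bnip3 chr7:138909507-138909756 (minus), that of Ankrd37 chr8:45999851-46000100 (minus) and that of Egln3 chr12:54203875-54204124 (minus).
Adm: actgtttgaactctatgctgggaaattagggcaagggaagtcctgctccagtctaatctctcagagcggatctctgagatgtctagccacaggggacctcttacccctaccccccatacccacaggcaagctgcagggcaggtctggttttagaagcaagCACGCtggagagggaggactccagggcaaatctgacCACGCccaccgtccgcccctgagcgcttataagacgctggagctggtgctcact
Bnip3: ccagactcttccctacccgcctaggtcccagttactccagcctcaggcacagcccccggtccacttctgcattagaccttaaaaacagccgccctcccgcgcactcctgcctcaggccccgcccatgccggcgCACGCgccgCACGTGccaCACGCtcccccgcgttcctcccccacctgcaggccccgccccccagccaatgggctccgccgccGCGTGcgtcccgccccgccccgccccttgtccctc
Ankrd37: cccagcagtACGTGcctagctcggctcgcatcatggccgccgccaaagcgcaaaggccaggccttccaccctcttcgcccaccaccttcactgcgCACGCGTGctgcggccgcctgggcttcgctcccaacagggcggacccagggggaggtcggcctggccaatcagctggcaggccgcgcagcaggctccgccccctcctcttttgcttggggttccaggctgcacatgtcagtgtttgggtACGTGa
Egln3: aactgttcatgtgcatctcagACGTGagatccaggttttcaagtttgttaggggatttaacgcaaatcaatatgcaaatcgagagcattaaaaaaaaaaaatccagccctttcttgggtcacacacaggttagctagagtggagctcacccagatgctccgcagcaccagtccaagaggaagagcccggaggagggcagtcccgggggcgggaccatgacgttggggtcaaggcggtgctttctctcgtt

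The Adm window holds GCGTG on the opposite strand, read as CACGC, with first bases at -90 and -54, where -1 is the last base before the start. In Bnip3 the 5 matches begin at -117, -108, -107, -99 and -35, and those at -108 and -107 are 1 palindrome, CACGTG, counted once on each strand. In Ankrd37 the matches begin at -241, -155, -152 and -6, with CACGC and GCGTG overlapping at -155 and -152. Egln3 has a single ACGTG, at -229. Such words are common: either one was found in 43.8% of all 32851 promoter windows of that length and in 61.0% of the 12748 windows of genes tested here. Counted by gene, 66.6% of the tested genes with an entry held a match in at least 1 window. Among the hypoxia response genes, all 7 higher genes with an entry and the 6 with an entry of the 7 that did not pass held one, and so did 16 of the 18 glycolytic enzymes and all 4 transporters with an entry.

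Glucose and lactate carriers moved in both directions. Slc2a3 (GLUT3), a high-affinity glucose transporter, rose from 16.9 and 14.9 CPM in WT to 31.25, 41.05 and 35.9 CPM in Adam17-/- cocultures. The log2 fold change was 1.18 (SE 0.134, adjusted p = 0.000559 by edgeR), the smallest adjusted p of the list, and the call held under all 14 alternative fits. Slc2a6 (GLUT6), a lysosomal hexose transporter of macrophages, fell from 62.6 and 49.6 CPM to 32.2, 30.6 and 39.8 CPM, a log2 fold change of -0.71 (SE 0.135, adjusted p = 0.00466 by edgeR), and likewise held under all 14. Slc2a1 (GLUT1), the ubiquitous glucose transporter, was at 620.2 and 541 CPM in WT against 484, 475 and 519.8 CPM. The groups did not overlap, and the log2 fold change of -0.24 (SE 0.0904) did not pass (adjusted p = 0.0727 by edgeR) except without WT replicate 2 (-0.33, adjusted p = 0.00531), and without WT replicate 1 it was -0.14 (adjusted p = 0.212). Per transcript length, Slc2a1 stood far above the other two, with the mean of the deposited FPKM values at 217 in WT and 205 in Adam17-/- libraries, against 3.82 and 9.59 for Slc2a3 and 25.4 and 17.2 for Slc2a6.

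Of the lactate carriers, Slc16a3 (MCT4), the exporter of strongly glycolytic cells and a known HIF target, fell from 640 and 553 CPM to 456, 459 and 478 CPM, with a log2 fold change of -0.36 (SE 0.0882, adjusted p = 0.0139 by edgeR). With library size scaling the value was -0.21 and did not pass (adjusted p = 0.0667), and the call was also lost without Adam17-/- replicate 1 (-0.33, adjusted p = 0.0769) or replicate 2 (-0.33, adjusted p = 0.0614). Slc16a1 (MCT1), which carries lactate both ways, was at 19.3 and 20.7 CPM in WT and at 28.1, 23.75 and 27.3 CPM in Adam17-/- libraries. It was higher by 0.40 (SE 0.111, adjusted p = 0.0219 by edgeR), a call lost without Adam17-/- replicate 1 (0.37, adjusted p = 0.0911) or replicate 3 (0.40, adjusted p = 0.0737).

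Of the enzymes that trap and commit glucose, Hk1 and Hk3 were lower and Pfkm and Pfkfb3 higher. Hexokinases phosphorylate glucose on entry. Hk1, the ubiquitous form, was at 284 and 256 CPM in WT and at 197, 193 and 228 CPM in Adam17-/- libraries (log2 fold change -0.39, SE 0.0962, adjusted p = 0.0146 by edgeR). Hk3, the form of myeloid cells, was at 242 and 204 against 177, 183 and 177 CPM (-0.32, SE 0.0907, adjusted p = 0.0263 by edgeR). Hk2, the inducible form and a HIF target, was at 324.5 and 309 against 287, 293 and 305 CPM. The 3 Adam17-/- values for Hk2 lay below both WT values, but the log2 fold change of -0.10 (SE 0.0780, adjusted p = 0.332 by edgeR) did not pass and turned to 0.04 with library size scaling.

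Pfkfb3 makes fructose 2,6-bisphosphate, the activator of phosphofructokinase, and is induced by HIF and by inflammatory signals. It was at 299.6 and 318 CPM in WT and at 445.5, 432 and 414 CPM in Adam17-/- libraries, well apart, with a log2 fold change of 0.48 (SE 0.0813, adjusted p = 0.00289 by edgeR). Pfkm, the muscle-type subunit of phosphofructokinase, rose by the same 0.48 (SE 0.0970, adjusted p = 0.00625 by edgeR), from 25.1 and 24.1 CPM to 33.7, 36.6 and 32.6 CPM. Both calls held under all 14 alternative fits at an adjusted p of 0.05. The more abundant subunits Pfkl and Pfkp did not pass, at -0.08 and 0.10 (adjusted p = 0.483 and 0.325 by edgeR), where library size scaling gave 0.07 and 0.25 and Pfkp then passed (adjusted p = 0.0368). Pfkfb4, the other bifunctional enzyme of the list, was at 0.00 (adjusted p = 0.985), and Gpi1, the isomerase between hexokinase and phosphofructokinase, at -0.03 (adjusted p = 0.849), turning to 0.12 with library size scaling.

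In the later steps of the pathway, 4 abundant enzymes were lower with TMM factors, and the others did not pass. Aldoa, the aldolase that cuts the 6-carbon sugar, was at 1924 and 1804 CPM in WT and at 1479, 1461 and 1560 CPM in Adam17-/- cocultures (log2 fold change -0.31, SE 0.0851, adjusted p = 0.0212 by edgeR). Gapdh, the dehydrogenase that is often taken as a reference transcript, was at 3992 and 3908 CPM against 3105, 2812 and 3309 CPM, and its log2 fold change of -0.36 (SE 0.0975, adjusted p = 0.0207 by edgeR) shrank to -0.21 and no longer passed with library size scaling (adjusted p = 0.1). Eno1, enolase, was at 1446 and 1313 CPM against 1130, 1034 and 1176 CPM (-0.31, SE 0.0926, adjusted p = 0.0307 by edgeR). Pkm, the pyruvate kinase of the last step, was at 5006 and 4316 CPM against 3358, 3349 and 3558 CPM (-0.45, SE 0.0979, adjusted p = 0.00869 by edgeR), the largest decrease among the enzymes. In all 4 the WT libraries lay above the 3 Adam17-/- libraries.

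The other enzymes of these steps were at -0.02 for Tpi1, 0.02 for Pgk1, -0.13 for Pgam1, -0.05 for Aldoc and -0.09 for Ldha, and none of these passed (adjusted p between 0.236 and 0.89 by edgeR). For Pgam1 all 3 Adam17-/- libraries (876, 827 and 891 CPM) nevertheless lay below both WT libraries (969 and 929 CPM). With library size scaling the Tpi1, Pgam1, Aldoc and Ldha values took the other sign, at 0.13, 0.01, 0.10 and 0.06. Ldha, the dehydrogenase that makes lactate and a classical HIF target, was at 1167 and 1225 CPM in WT and at 1112, 1068 and 1196 CPM in Adam17-/- libraries, with the groups overlapping. Some reads of Gapdh, Eno1, Pfkp and Gpi1 were also divided with other genes, as their counts lay more than 0.05 from a whole number in at least 1 library, so that their levels depend on how such reads were divided.

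How many enzymes were called lower depended on the scaling. All 6 kept a negative fold change under all 14 alternatives, but with library size scaling Pkm alone passed (log2 fold change -0.30), and limma on the deposited FPKM values called 0 lower and 3 higher. Without Adam17-/- replicate 1 the test called 0 of the 6, with Hk1 at -0.34, Hk3 at -0.29, Aldoa at -0.28, Gapdh at -0.35, Eno1 at -0.30 and Pkm at -0.41 (adjusted p from 0.0546 to 0.114 by edgeR), and without Adam17-/- replicate 2 it called Pkm alone. Without Adam17-/- replicate 3 the calls on Hk3 (-0.29), Aldoa (-0.32) and Eno1 (-0.33) were lost, and without WT replicate 1 those on Hk3 (-0.19) and Eno1 (-0.24). As a share of all counts the 18 enzymes made up 1.76% and 1.73% in WT and 1.64%, 1.55% and 1.71% in Adam17-/- libraries. By the authors' FPKM, averaged per group, Gapdh (2772 in WT and 2415 in Adam17-/-), Pkm (1849 and 1505) and Aldoa (1204 and 1074) were the highest members per transcript length.

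**Figure D3:**
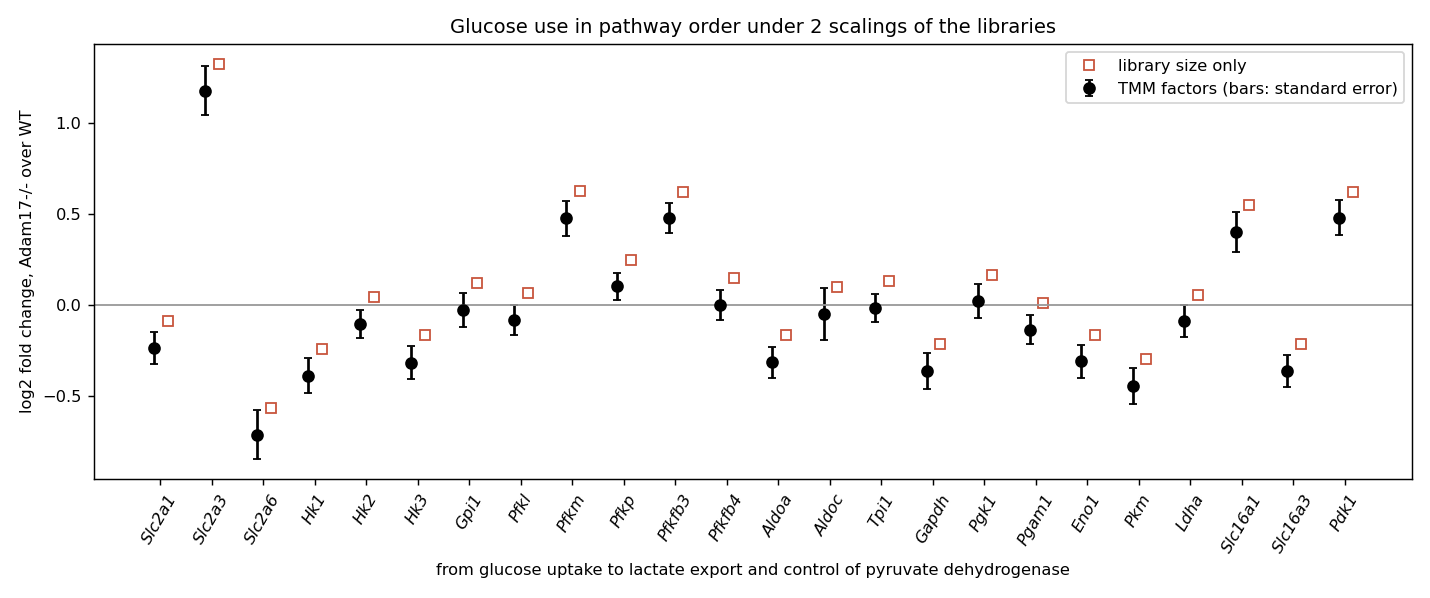
Log2 fold change of Adam17-/- over WT (y axis) for transporters and enzymes in the order of the pathway, ending with Pdk1; filled circles with standard errors are from TMM factors and open squares from library size alone. The squares lie above the circles by a nearly constant amount, which takes several enzymes across 0, while Slc2a3, Pfkm, Pfkfb3, Slc16a1 and Pdk1 are above 0 and Slc2a6, Hk1, Hk3, Aldoa, Gapdh, Eno1, Pkm and Slc16a3 below 0 under both.

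Pkm is spliced to one of a pair of mutually exclusive exons, and the choice decides between the M1 and the M2 form of pyruvate kinase. The upstream exon (M1) is at chr9:59675029-59675195 and the downstream exon (M2) at chr9:59675568-59675734 in GRCm38, both coding and on the plus strand, and each is exon 9 of 11 in its RefSeq transcript, NM_001253883 and NM_011099. They are printed because the split of Pkm reads rests on the bases by which they differ, which are in capitals.
Pkm M1 exon: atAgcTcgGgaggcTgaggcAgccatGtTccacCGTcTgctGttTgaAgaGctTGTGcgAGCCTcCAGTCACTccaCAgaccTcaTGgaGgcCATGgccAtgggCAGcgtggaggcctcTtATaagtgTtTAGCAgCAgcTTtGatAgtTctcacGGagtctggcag
Pkm M2 exon: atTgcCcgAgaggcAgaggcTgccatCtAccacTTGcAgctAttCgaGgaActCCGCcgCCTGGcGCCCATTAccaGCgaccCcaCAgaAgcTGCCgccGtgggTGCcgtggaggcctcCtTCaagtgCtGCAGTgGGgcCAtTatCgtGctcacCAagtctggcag

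Both exons have 167 bases, of which 103 (61.7%) are identical at the same position and 64 differ. The M2 transcript took 85.4% and 87.3% of Pkm counts in WT and 86.5%, 85.4% and 86.6% in Adam17-/- libraries, and the M1 transcript the rest, 12.7% to 14.6% in the 5 libraries. The shares of the groups overlapped. For Gapdh, the transcript NM_001289726 took 20.4% and 25.8% of counts in WT against 34.3%, 31.6% and 29.9% in Adam17-/- libraries, without overlap and without a test. For Hif1a, NM_001313920 took 18.6% and 25.2% against 29.2%, 31.2% and 26.5%.

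Lists of 126 further genes around the pathway were read beside the members. They were chosen by function, with earlier results of these data known. Of these genes 112 were tested and 44 passed, 20 higher and 24 lower. Over all genes, 31.7% passed, 14.9% higher and 16.8% lower. With library size scaling 45 companion genes passed, 31 higher and 14 lower, where over all 12576 genes 3019 were higher and 1077 lower. The nearest to the hypoxia response genes was a list of 29 other HIF targets, all tested. Of these 11 were higher and 4 lower, and the median log2 fold change was 0.23. The largest increases were in Car12 (2.27, SE 0.695, adjusted p = 0.0332 by edgeR), a carbonic anhydrase near the level of 3 counts at 0.108 to 1.69 CPM, Plod2 (1.43, SE 0.341, adjusted p = 0.0124), a collagen lysyl hydroxylase, and Lox (0.92, SE 0.284, adjusted p = 0.0351), lysyl oxidase. The Car12 call was lost without WT replicate 2 (1.67, adjusted p = 0.105). The Lox call was lost without WT replicate 2 (0.54), Adam17-/- replicate 1 (0.98) or Adam17-/- replicate 3 (0.69), and without WT replicate 1 its value was 1.43. Among the other higher calls, those on Fam162a (0.44), Ak4 (0.50), Narf (0.35) and Rora (0.60) were lost without Adam17-/- replicate 1. Fam162a (0.61), Ak4 (0.38) and Rora (0.59) also lost theirs without Adam17-/- replicate 3, and Narf (0.37) without Adam17-/- replicate 2. On the lower side, Plin2 lost its call without Adam17-/- replicate 1 (-0.25), 2 (-0.29) or 3 (-0.26), and Plod1 without Adam17-/- replicate 1 (-0.35). The counts by direction were 13 higher and 3 lower with library size scaling, 12 and 2 with limma on FPKM, and 10 and 4 with DESeq2.

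Within the machinery that sets HIF activity, 12 of 14 genes were tested, 1 was higher and 2 were lower. Calls were no more frequent than over all genes, where 14.9% were higher and 16.8% lower. The list's median of -0.02 turned to 0.13 with library size scaling, where 2 were higher and 0 lower. The all-gene median moved likewise, from 0.01 to 0.16. Vhl, the recognition subunit that binds hydroxylated HIF alpha, was higher, with 32.5 and 39.45 CPM in WT against 51.2, 50.3 and 50.1 CPM (log2 fold change 0.49, SE 0.102, adjusted p = 0.00691 by edgeR). Siah2, a ubiquitin ligase for the hydroxylases, was lower by TMM (-0.44, SE 0.137, adjusted p = 0.0352), as was Epas1, which encodes HIF-2 alpha (-0.39, SE 0.107, adjusted p = 0.0226); neither passed with library size scaling. Siah2 also did not pass without Adam17-/- replicate 1 (-0.41), Adam17-/- replicate 2 (-0.33) or WT replicate 1 (-0.40), nor Epas1 without Adam17-/- replicate 1 (-0.38), 2 (-0.31) or 3 (-0.41).

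Of 14 other isozymes and side enzymes of glycolysis, 11 were tested. Over all 12576 genes, 14.9% were higher and 16.8% lower with TMM factors, and 3019 were higher and 1077 lower with library size scaling. With TMM factors and with DESeq2 4 were higher, with library size scaling 7, with limma 7 on log2(FPKM + 0.1) and 6 on log2(FPKM + 1), and with the replicate block 2, while 0 were lower in any of these fits and at an unadjusted p of 0.05 in edgeR. Eno3, muscle enolase, rose by 1.32 (SE 0.168, adjusted p = 0.000863 by edgeR), from 3.51 and 3.57 CPM to 9.91, 7.76 and 8.79 CPM, in contrast to the fall of Eno1. Ldhb, the heart-type lactate dehydrogenase, and Eno2, neuronal enolase, were higher by 0.51 (SE 0.153, adjusted p = 0.0315) and 0.50 (SE 0.132, adjusted p = 0.018). Pfkfb2 was the fourth, at 0.37 (adjusted p = 0.0139). Ldhb lost its call without Adam17-/- replicate 1 (0.51), Adam17-/- replicate 3 (0.42) or WT replicate 2 (0.35), and Pfkfb2 without Adam17-/- replicate 1 (0.36) or 2 (0.38). Eno2 lost it without Adam17-/- replicate 1 (0.47, adjusted p = 0.0593) and was at 0.30 without WT replicate 2. Of the other sugar and lactate carriers, 5 of 11 were tested, and Slc16a7 (MCT2, -0.43), Emb (embigin, an ancillary chain of lactate carriers, -0.42) and the urate carrier Slc2a9 (-0.36) were lower, 3 calls that fell to 1 with library size scaling and to 0 with limma on FPKM. The edgeR test called 0 of these carriers higher, also at an unadjusted p of 0.05, and DESeq2 and limma called 0 higher at an adjusted p of 0.05. The Slc16a7 call was lost without Adam17-/- replicate 1 (-0.35), 2 (-0.43) or 3 (-0.47) or WT replicate 2 (-0.33), and the Slc2a9 call without Adam17-/- replicate 1 (-0.36), 2 (-0.38) or 3 (-0.29).

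The pentose phosphate pathway branches from glycolysis at its first product. All 12 of its genes were tested and 3 were lower (against 16.8% of all genes) and 0 higher, led by Tkt, transketolase (-0.73, SE 0.0931, adjusted p = 0.000841 by edgeR), and G6pdx, the entry enzyme (-0.46, SE 0.0881, adjusted p = 0.00491), and followed by its paralog of the endoplasmic reticulum, H6pd (-0.32, adjusted p = 0.0192). For this list the median was -0.17, and -0.02 with library size scaling, where 2 were lower and 0 higher. At an unadjusted p of 0.05 edgeR again found 0 higher, and DESeq2 and limma found 0 higher at an adjusted p of 0.05. H6pd lost its call without Adam17-/- replicate 1 (-0.25), 2 (-0.33) or 3 (-0.33). Tkt was at 279 and 236 CPM in WT against 148, 155 and 162 CPM. Among 28 tested of 29 genes for pyruvate entry and oxidation and the tricarboxylic acid (TCA) cycle, 10 were lower and 1 higher. Over all genes, 16.8% were lower and 14.9% higher. With library size scaling 7 of the list were lower and 1 higher. Of the 10 lower calls, those on Pdp1 (-0.35), Suclg1 (-0.35) and Fh1 (-0.29) were lost without Adam17-/- replicate 1, 2 or 3. Those on Ogdh (-0.39) and Dlst (-0.39) were lost without Adam17-/- replicate 1. Mdh2, mitochondrial malate dehydrogenase, was at 111 and 102 CPM in WT against 54.8, 65.8 and 66.8 CPM (-0.77, SE 0.104, adjusted p = 0.00105 by edgeR). Pdp2, the phosphatase that reverses the action of Pdk1 on pyruvate dehydrogenase, was lower by TMM at -0.72 (SE 0.133, adjusted p = 0.00426), and Idh3a, an isocitrate dehydrogenase subunit, at -0.62 (SE 0.105, adjusted p = 0.00295). Pdhb, the beta chain of pyruvate dehydrogenase E1, was the 1 higher (0.36, adjusted p = 0.0315), a call lost without WT replicate 1 (0.24) or Adam17-/- replicate 1 (0.31), 2 (0.43) or 3 (0.40).

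Of 15 tested of 17 glycogen genes, 3 were higher and 2 lower, near the all-gene shares of 14.9% higher and 16.8% lower. With library size scaling 8 were higher and 1 lower, where over all 12576 genes 3019 were higher and 1077 lower. Phka2, a regulatory subunit of phosphorylase kinase, rose by 0.56 (SE 0.078, adjusted p = 0.00118 by edgeR), Gbe1, the branching enzyme, by 0.44 (SE 0.133, adjusted p = 0.0321), and Pgm2, a phosphoglucomutase, fell by 0.43 on the log2 scale (SE 0.0894, adjusted p = 0.00686). The Gbe1 call was lost without WT replicate 1 (0.37) or Adam17-/- replicate 1 (0.46) or 3 (0.34), and the Pgm2 call without Adam17-/- replicate 1 (-0.39).

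**Figure D4:**
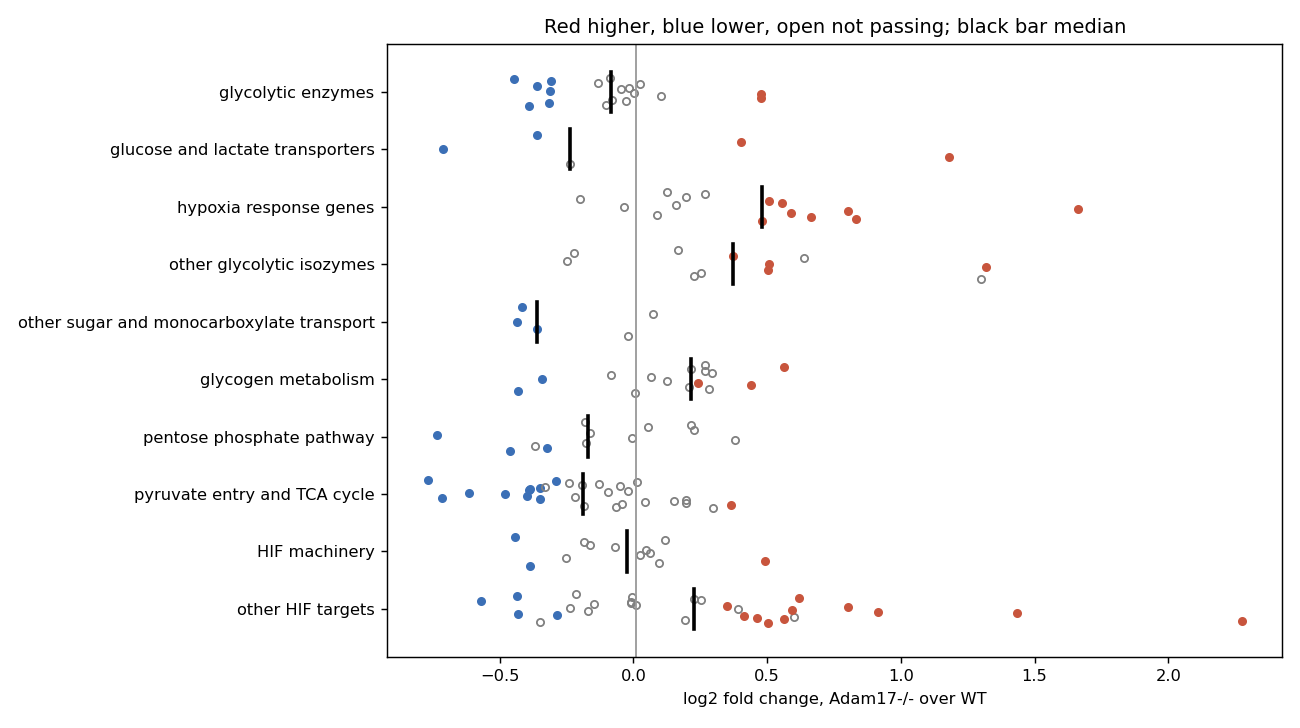
Log2 fold change of Adam17-/- over WT (x axis) for each tested gene of the 3 member groups and the 7 companion lists (rows); red points are higher and blue points lower at an adjusted p of 0.05 or less, open points did not pass, black bars are medians and the grey line is the median of all genes tested, 0.01. Points of the hypoxia response genes and other HIF targets reach furthest to the right, and 10 of the 28 points of the pyruvate entry and TCA cycle list and 6 of the 18 of the glycolytic enzymes are blue.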

How the data were processed

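RNA from 5 BMDM cocultures was sequenced by the authors on a BGISEQ-500, from poly-A libraries with no strand-marking step in the protocol. For each library they deposited 1 transcript table with expected counts and FPKM values; per the labels the tools were Bowtie2, RSEM and DESeq2 on mm10, whereas the study's methods name HISAT and Bowtie2, and versions are not given in the sources used here. Expected counts divide shared reads among transcripts, so that 48.3% to 49.3% of transcript values were not whole. They were summed per gene (Entrez ID), rounded and filtered by edgeR's filterByExpr (12576 of 17058 genes kept). Library totals of 14658694 to 20788373 counts put 3 counts at 0.157 to 0.197 CPM, a floor that covers counting error only. The deposited FPKM values were summed per gene and carry no composition factor.

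Groups were taken from sample titles. The comparison, Adam17-/- minus WT, used edgeR 4.0.16 (TMM factors, quasi-likelihood test, adjusted p of 0.05 over all genes) in R 4.3.3; the script was tested on simulated data. With 2 against 3 libraries an exact permutation test could not go below 0.1, and none was used. Alternatives were DESeq2 1.42.0, limma 3.58.1 on log2(FPKM + 0.1) and log2(FPKM + 1), RLE, upper quartile and library size scaling, no filter, 10 counts in every sample, a replicate block, each library left out, and an adjusted p of 0.001. The study's methods give DESeq2 and PoissonDis at the last threshold, whereas its results report genes at an adjusted p of 0.05 or less with a fold change limit.

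All members were named; values per library were given for those past 0.5 in absolute log2 fold change and the adjusted p, and for Hk2, Pfkfb3, Gapdh, Pkm, Ldha, Slc2a1, Slc16a3, Pdk1, Hif1a, Egln3, Bnip3, Ankrd37, Adm and Ddit4. Other members' values per library were added where space allowed, after they were seen. Of each companion list, the passing genes with the 3 largest absolute changes were named; Pfkfb2 and Pdhb were added after their values were seen. The members and lists were chosen with earlier results of these data known. Symbols were matched to Entrez IDs through RefSeq, 37 members by symbol and Ero1l by synonym. Promoter letters are from RefSeq (GRCm38.p6) and Pkm exons from GENCODE on GRCm38. A single result is not reported here.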

Additional observations from a re-analysis of the deposited data

How the results depend on the processing

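The count of passing glycolytic enzymes was 8, with 2 higher and 6 lower. It fell to 4 with library size scaling (3 higher, 1 lower), to 3 with limma on log2(FPKM + 0.1) and to 3 on log2(FPKM + 1) (3 higher, 0 lower in both), and ranged from 2 to 8 with single libraries left out. The transporters' count of 4 ranged from 2 to 5, the hypoxia response genes' count of 8 from 7 to 10 and the companion lists' count of 44 from 18 to 56 with single libraries left out; the companion counts were 18 without Adam17-/- replicate 1 and 26 without replicate 3, and the transporters' count was 2 without Adam17-/- replicate 1. At an adjusted p of 0.001 edgeR called 0 glycolytic enzymes, 1 transporter, 0 hypoxia response genes and 2 companion genes, where an unadjusted p of 0.05 gave 8, 5, 9 and 57. Fits with the replicate number as a block gave 5 glycolytic enzymes (2 higher, 3 lower), 2 transporters, 8 hypoxia response genes and 23 companion genes; deviations of same-numbered libraries correlated at -0.156 for number 1 and -0.079 for number 2, so the numbers were not taken to pair the samples. Changes of sign were found in fold changes that did not pass: with library size scaling and both FPKM scales Hk2 was at 0.04, Gpi1 at 0.12, Pfkl at 0.07, Tpi1 at 0.13, Pgam1 at 0.01, Ldha at 0.06, P4ha1 at 0.11 and Aldoc at 0.10, 0.08 and 0.07; with upper quartile factors Gpi1 was at 0.03, Aldoc at 0.01, Tpi1 at 0.04 and P4ha1 at 0.02; with the block Pgk1 was at -0.04 and P4ha2 at -0.01; with 1 library left out, Gpi1 ranged from -0.09 to 0.05, Pfkfb4 from -0.06 to 0.06, Aldoc from -0.17 to 0.11, Tpi1 from -0.02 to 0.02, Pgk1 from -0.06 to 0.10, P4ha1 from -0.05 to 0.01, Hif1a from -0.44 to 0.09 and Ddit4 from -0.02 to 0.44. The cause of these changes was not tested beyond the shift of the all-gene median to 0.16 with library size scaling and to 0.15 and 0.11 on the FPKM scales. In WT only 2 libraries give the spread, and leaving 1 out assumes that the other varies as the Adam17-/- libraries do.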

Other observations

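Several further HIF targets are named here after their values were seen. Vegfa, the main angiogenic growth factor, was at 1583 and 1323 CPM in WT and at 1968, 2003 and 2212 CPM in Adam17-/- cocultures, with a log2 fold change of 0.50 (SE 0.106, adjusted p = 0.00741 by edgeR). Ccng2, an unconventional cyclin linked to growth arrest, was at 57.5 and 73.3 CPM against 120.3, 107 and 114 CPM (0.80, SE 0.114, adjusted p = 0.00131), and Bhlhe40, a transcriptional repressor, at 135 and 123 CPM against 167, 173 and 176 CPM (0.41, SE 0.0819, adjusted p = 0.00563). In each the groups did not overlap. In the other direction, Hmox1, heme oxygenase, was at 542 and 501 CPM in WT against 378.5, 368 and 412 CPM (-0.43, SE 0.0859, adjusted p = 0.00558 by edgeR), and Plod1, a collagen lysyl hydroxylase like the higher Plod2, at 717.5 and 603 CPM against 445, 496 and 525.5 CPM (-0.43, SE 0.104, adjusted p = 0.0129), a call lost without Adam17-/- replicate 1 (-0.35, adjusted p = 0.0729). Car9 and Angptl4, commonly used hypoxia markers, did not pass, at -0.35 (SE 0.171, adjusted p = 0.146) and 0.39 (SE 0.24, adjusted p = 0.239).

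In the TCA cycle, Cs, citrate synthase, was also lower by TMM (-0.40, SE 0.0743, adjusted p = 0.00422 by edgeR). The 4 genes of succinate dehydrogenase, Sdha, Sdhb, Sdhc and Sdhd, did not pass, at -0.19, -0.13, -0.24 and 0.01.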
